A study of Mus musculus with 9 samples.

Results

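Transcript levels were compared between HEI-OC1 cells carrying a frameshift form of the transcription factor LMX1A (c915dup) and HEI-OC1 cells carrying wild-type LMX1A (WT). The comparison used 6 of the study's 9 RNA sequencing libraries, 3 of c915dup and 3 of WT, chosen by the genotype in their labels. The other 3 libraries came from cells transduced with the empty vector (EV). Those entered the fit, where they share the estimate of the spread, and are quoted as the background of both forms. All 9 libraries are of 1 mouse cell line, and all cells were transduced. The difference between groups that the labels name is what the vector carried. The labels do not name the vector's promoter or the number of clones, and they do not say whether replicate libraries are separate cultures. The p-values thus speak of the spread among these 6 or 9 libraries, part or all of which may be technical.

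LMX1A belongs to the LIM-homeodomain family, whose members bind AT-rich DNA through the homeodomain and recruit LDB cofactors through their LIM domains. It is known for its part in the development of the inner ear, of the roof plate and of midbrain dopaminergic neurons. HEI-OC1 is an immortalised line derived from the mouse organ of Corti and is used as a model of cochlear cells. The series' title places the frameshift near the C-terminus of LMX1A and connects it with familial hearing loss. The question addressed by the comparison is how the transcriptome of cells with the frameshift form differs from that of cells with the wild-type form.

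The libraries numbered 1 stood apart in every group. Principal component 1 (42.5% of the variance) separated them from the other 6, and component 2 (16.6%) set the groups in the order EV, WT, c915dup. Component 3 (10.6%) set WT (-10.5 to -7.54) apart from EV (3.15 to 5.15) and c915dup (4.64 to 4.93), which lay together. Mitochondrial transcripts held 4.36% to 5.49% of FPKM (fragments counted per transcript kilobase and scaled to library size, the unit of the deposited values) in the libraries numbered 1 and 1.69% to 2.17% in the others. The total FPKM was 339489 to 358766 per library, and 11582 to 11884 genes reached 1 FPKM. Since each group held 1 library numbered 1, that number entered the fit as a block (number 1 against the other numbers), and differences are also given for the WT and c915dup libraries numbered 1 (the pair numbered 1) and for the other 4 libraries. The c915dup columns are numbered 1, 3 and 4. The cells had little of the hair cell programme: of 20 hair cell markers, Myo6 alone reached 1 FPKM in any of the 6 libraries, and 9, among them Pou4f3, Atoh1, Otof and Slc26a5, were listed at 0 in all 6.

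The transduced gene was present in both forms. Human LMX1A (ENSG00000162761, positions 3000 to 157848 of a contig of its own) was listed at 0 in the 3 EV libraries. It stood at 133, 132 and 131 FPKM in WT and at 170, 150 and 149 FPKM in c915dup. All c915dup libraries lay above all WT libraries, and the library numbered 1 lay highest. The log2 difference, c915dup minus WT, was 0.24 ± 0.05 (SE), with an adjusted p of 0.0209 in limma. It did not pass without the block (adjusted p = 0.175) or without the 3 libraries numbered 1 (log2 0.18, adjusted p = 0.0676). The call was also lost when any 1 of the 6 WT and c915dup libraries was left out, with adjusted p values of 0.0533 without c915dup replicate 4 to 0.0691 without WT replicate 1. The mouse's own Lmx1a was at 0 throughout.

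Of 11933 genes tested, 574 passed at an adjusted p under 0.05 (4.81%), of which 374 were higher in c915dup (3.13%) and 200 were lower (1.68%). The changes were small. The median log2 difference of the genes that rose was 0.31 and that of the genes that fell -0.21, and 46.8% of the rises and 82.5% of the falls were under 0.3 in size. Only 54 rises and 5 falls reached 0.5. The WT and c915dup libraries did not overlap in 301 of the 374 and in 142 of the 200 genes, against 9.23% (higher) and 6.85% (lower) of all genes tested. Calls and overlap were read from the same libraries, so the larger share among the calls is not separate support for them. Without the block 27 genes passed (0.226%), 26 of them higher (0.218%) and 1 lower (0.00838%), and all 27 were also among the calls with the block. The split also moved with scaling: with all libraries brought to a common total without mitochondrial and short RNA genes, 381 rose and 344 fell, a share of 52.6% higher against 65.2%. The median over all genes tested was 0.0016 in the main fit, 0.039 in the pair numbered 1 and -0.014 in the other 4 libraries.

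**Figure D1:**
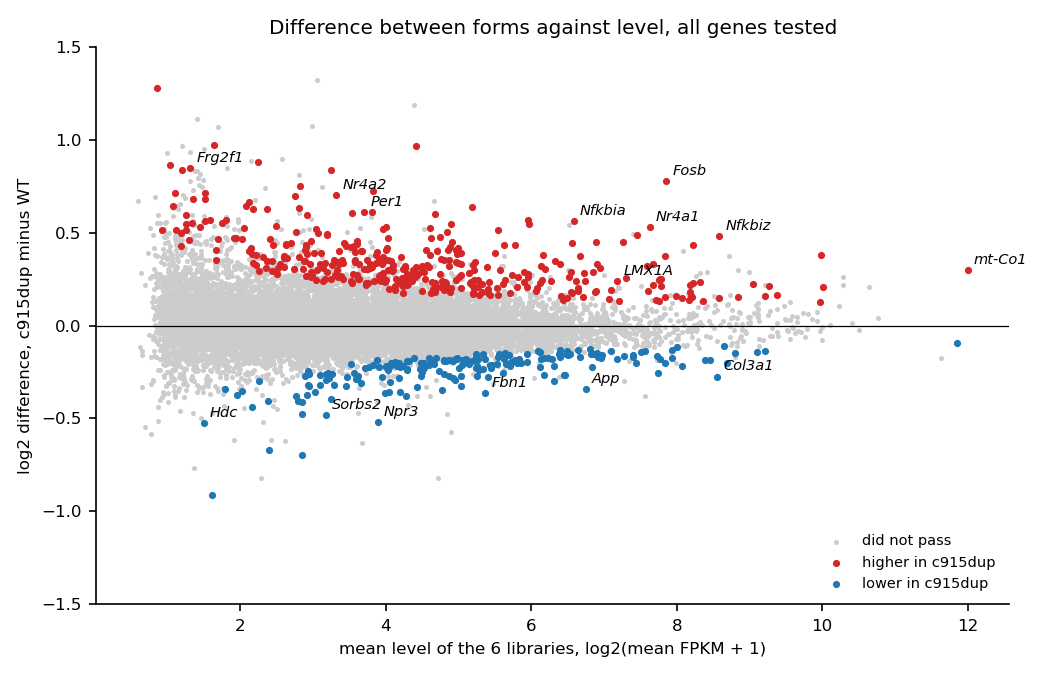
Log2 difference between c915dup and WT for each gene tested (y axis) against the mean level of the 6 libraries, log2(mean FPKM + 1) (x axis). The 374 genes that rose are red, the 200 that fell are blue, grey genes did not pass, and 1 gene lies outside the plotted range; most coloured points lie within 0.5 of zero.

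The differences seen in 4 libraries were read in the pair they did not use. In a fit of the 6 libraries not numbered 1, of which 2 were WT and 2 were c915dup, 349 genes passed (2.92%). Of these, 188 were higher in c915dup (1.58%) and 161 were lower (1.35%). Of the 188, 164 (87.2%) were also higher in the pair numbered 1, where their median log2 difference was 0.32 against 0.35 in the 4 libraries. Among all 5479 genes higher in the 4 libraries, 69.3% were higher in the pair. Of the 161 lower genes, 138 (85.7%) were lower in the pair, against 48.1% of all 6454 genes lower in the 4 libraries. The falls were smaller there, with a median of -0.11 in the pair against -0.26 in the 4 libraries. The difference itself was not the same in the pair and in the other libraries for 2 genes (0.0168%) by limma's interaction test, Rps10 and Pcdhgb8, against 1473 at an unadjusted p under 0.05. Of the main calls, 145 of 374 rises and 100 of 200 falls also passed without the libraries numbered 1.

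**Figure D2:**
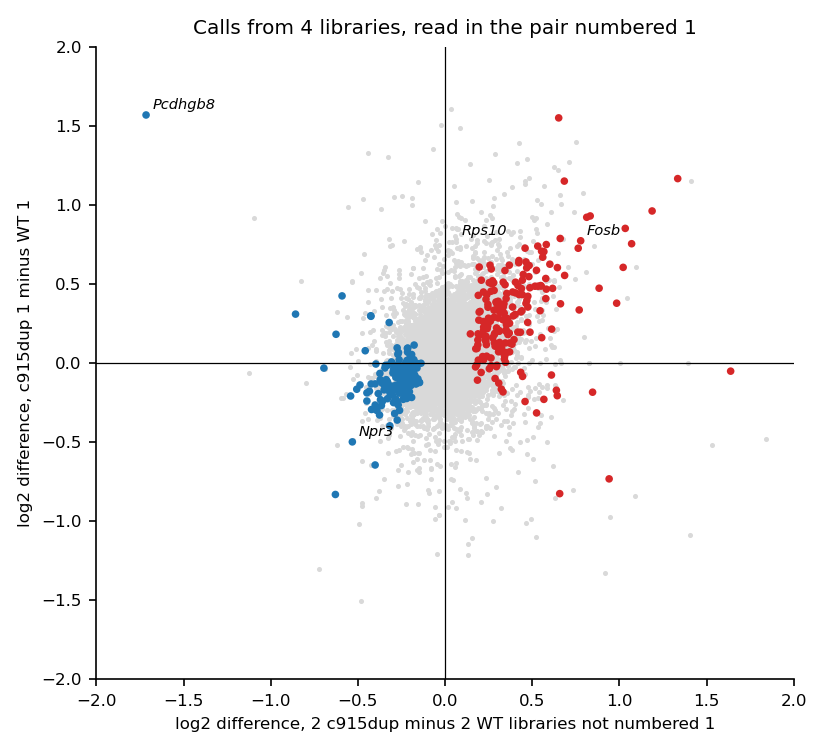
Log2 difference in the 2 libraries numbered 1 (y axis) against that in the other 4 libraries (x axis), c915dup minus WT. Coloured genes passed in the fit without number 1 (188 higher in red, 161 lower in blue), most lie in the same direction on both axes, and 4 genes lie outside the plotted range.

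Most of the tested genes that cells induce rapidly after a stimulus, the immediate early factors, rose with the frameshift form. Of 27 tested immediate early factors, 18 rose, none fell and 9 did not pass, and the difference was above 0 in 26 of the 27. The share of rises was 66.7%, beside 3.13% of all genes tested, and the median log2 difference was 0.26 beside 0.0016. This median was 0.24 in the pair numbered 1 and 0.28 in the other 4 libraries. This list and those below were chosen with earlier results of these data known. Their shares therefore describe the lists and are not a test of enrichment. Without the block 3 of the 27 passed, and without the libraries numbered 1 14 did. Fosb, Nr4a1, Nr4a2 and Egr3 were among the 15 largest rises of genes whose groups did not overlap, with short RNA genes, clone names and genes under 1 FPKM in the higher group left out, and Frg2f1, described with the genes outside the lists, had a larger log2 difference than any of them.

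Promoters are printed here of 4 genes whose calls held with and without the block and under the other alternatives tried for the main fit. Fosb, Nr4a1 and Nfkbia rose, and Npr3 was the 1 gene that also fell without the block. The 4 were picked from 17 named genes with a window. Others, such as Per1, also passed with and without the block, so the matches in the 4 do not stand for all genes that changed. Each window runs from 250 bases before to 50 bases after the start site in RefSeq (GRCm38.p6), 5′ to 3′ on the gene's strand. Capitals mark matches, on either strand, to the core of the cAMP response element (TGACG, or CGTCA on the other strand) and to the kappaB consensus.
Fosb, chr7:19309996-19310295, minus strand: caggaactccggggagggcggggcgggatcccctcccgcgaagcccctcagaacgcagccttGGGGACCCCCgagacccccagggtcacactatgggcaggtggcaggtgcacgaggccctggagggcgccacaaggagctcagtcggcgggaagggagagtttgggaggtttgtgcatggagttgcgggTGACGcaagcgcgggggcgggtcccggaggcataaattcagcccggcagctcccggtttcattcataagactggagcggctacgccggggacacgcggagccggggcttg
Nr4a1, chr15:101266596-101266895, plus strand: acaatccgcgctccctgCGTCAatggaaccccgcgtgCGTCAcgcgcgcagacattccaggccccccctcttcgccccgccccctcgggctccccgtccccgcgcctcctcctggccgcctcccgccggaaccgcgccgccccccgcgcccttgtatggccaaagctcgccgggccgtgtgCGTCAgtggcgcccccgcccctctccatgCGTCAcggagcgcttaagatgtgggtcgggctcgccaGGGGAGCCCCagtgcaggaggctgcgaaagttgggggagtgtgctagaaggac
Nfkbia, chr12:55492598-55492897, minus strand: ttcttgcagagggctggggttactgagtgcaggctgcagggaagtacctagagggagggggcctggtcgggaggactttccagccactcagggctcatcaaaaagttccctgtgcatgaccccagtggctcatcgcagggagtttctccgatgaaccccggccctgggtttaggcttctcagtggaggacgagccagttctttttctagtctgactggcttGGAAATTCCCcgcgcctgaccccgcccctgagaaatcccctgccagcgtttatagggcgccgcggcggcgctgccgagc
Npr3, chr15:11907322-11907621, minus strand: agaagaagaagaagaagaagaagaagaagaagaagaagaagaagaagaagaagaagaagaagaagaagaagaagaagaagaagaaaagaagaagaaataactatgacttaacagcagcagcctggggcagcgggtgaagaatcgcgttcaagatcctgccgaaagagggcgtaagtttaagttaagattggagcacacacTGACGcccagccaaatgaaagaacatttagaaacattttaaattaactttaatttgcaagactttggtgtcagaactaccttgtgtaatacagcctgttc
The windows of Fosb and Npr3 each held 1 match to TGACG, and that of Nr4a1 held 4. Of all 32851 promoter windows in the table, 20.8% held at least 1. A kappaB match stood in the windows of Fosb, Nr4a1 and Nfkbia and in 8.46% of all windows. None of the 4 held the E-box CACGTG (7.15% of all windows), the CArG box (1.63%) or TAATTA (5.29%), a palindrome built on the TAAT core that homeodomains bind. Among windows not printed, those of Per1 held TGACG and an E-box, and that of Chuk held TGACG and TAATTA. Cry2, which rose, and Mme, which fell, had a kappaB match. Per1, Chuk, Klf2 and Nr4a2, which rose, had none. A match is a string of letters and does not show that a factor binds, and a missing match says only that these letters are not in the window.

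Fosb, an AP-1 subunit of the FOS family (chromosome 7, 19302696 to 19310051), had 181, 168 and 159 FPKM in WT replicates 1, 2 and 3 and 310, 273 and 288 FPKM in c915dup replicates 1, 3 and 4. Every c915dup library was far above every WT library. Its log2 difference was 0.78 ± 0.04 (limma adjusted p = 3.12e-06, and 0.0031 without the block). EV stood between the forms, at 215, 194 and 184 FPKM.

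Nr4a1, an orphan nuclear receptor (chromosome 15), had 168, 159 and 156 FPKM in WT and 235, 231 and 232 FPKM in c915dup. Neither group's spread came near the gap between them. The log2 difference was 0.53 ± 0.03 (adjusted p = 2.51e-05, and 0.0031 without the block). Its relative Nr4a2, which is also required for dopaminergic neurons, had 7.12, 6.24 and 6.31 FPKM in WT and 13.0, 10.1 and 10.9 FPKM in c915dup. The groups did not overlap, and the library numbered 1 was the highest in both. The log2 difference was 0.70 ± 0.07 (adjusted p = 0.000685), and without the block the adjusted p was 0.0717.

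Among the EGR zinc-finger factors, Egr3 had 8.13, 8.50 and 8.0 FPKM in WT and 13.9, 13.3 and 11.9 FPKM in c915dup, again with no overlap (log2 0.61 ± 0.07, adjusted p = 0.00108, and 0.0273 without the block). Egr1 rose from 211, 187 and 194 to 270, 248 and 251 FPKM (log2 0.38 ± 0.03, adjusted p = 6.95e-05, and 0.0617 without the block). Egr2 rose by log2 0.34 ± 0.06 (adjusted p = 0.0196), a call lost without WT replicate 1 or 3 or without c915dup replicate 1 or 4 (adjusted p 0.0522 to 0.067). Klf2, a Kruppel-like factor, showed how much the block matters: it had 8.83, 13.4 and 13.3 FPKM in WT and 12.8, 19.7 and 19.9 FPKM in c915dup. The lowest c915dup library overlapped the WT libraries, but within each number class c915dup was higher. The log2 difference was 0.52 ± 0.05 and its adjusted p was 0.00018 in the blocked fit but 0.468 without the block.

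The remaining rises of the list were smaller, between log2 0.21 and 0.34. They comprised the AP-1 subunits Fos, Fosl1, Jun and Junb, together with Ier2, Ier3, Ier5, Klf4, Btg2, Csrnp1 and Srf. Those that did not pass were Arc (0.11), Myc (0.08), Atf3 (0.08), Klf6 (0.19), Klf10 (0.06), Fosl2 (0.14), Maff (0.24), Jund (0.27) and Ier5l (-0.07). The 27 tested members summed to 1649 to 1746 FPKM in WT and 2116 to 2233 FPKM in c915dup, with 1582 to 1648 in EV.

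The 3 comparisons among EV, WT and c915dup share libraries, so their values are only set side by side. For Nr4a1 the log2 difference was 0.74 for WT minus EV, 1.27 for c915dup minus EV and 0.53 for c915dup minus WT. For Egr3 these were 0.52, 1.12 and 0.61, and for Nr4a2 0.65, 1.35 and 0.70. These 3 genes thus stood in the order EV, WT, c915dup, each step past the test. Fosb differed: WT was below EV (log2 -0.22, adjusted p = 0.0123) and c915dup above it (0.56). With the block, 145 genes passed between WT and EV (1.22%) and 661 between c915dup and EV (5.54%).

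**Figure D3:**
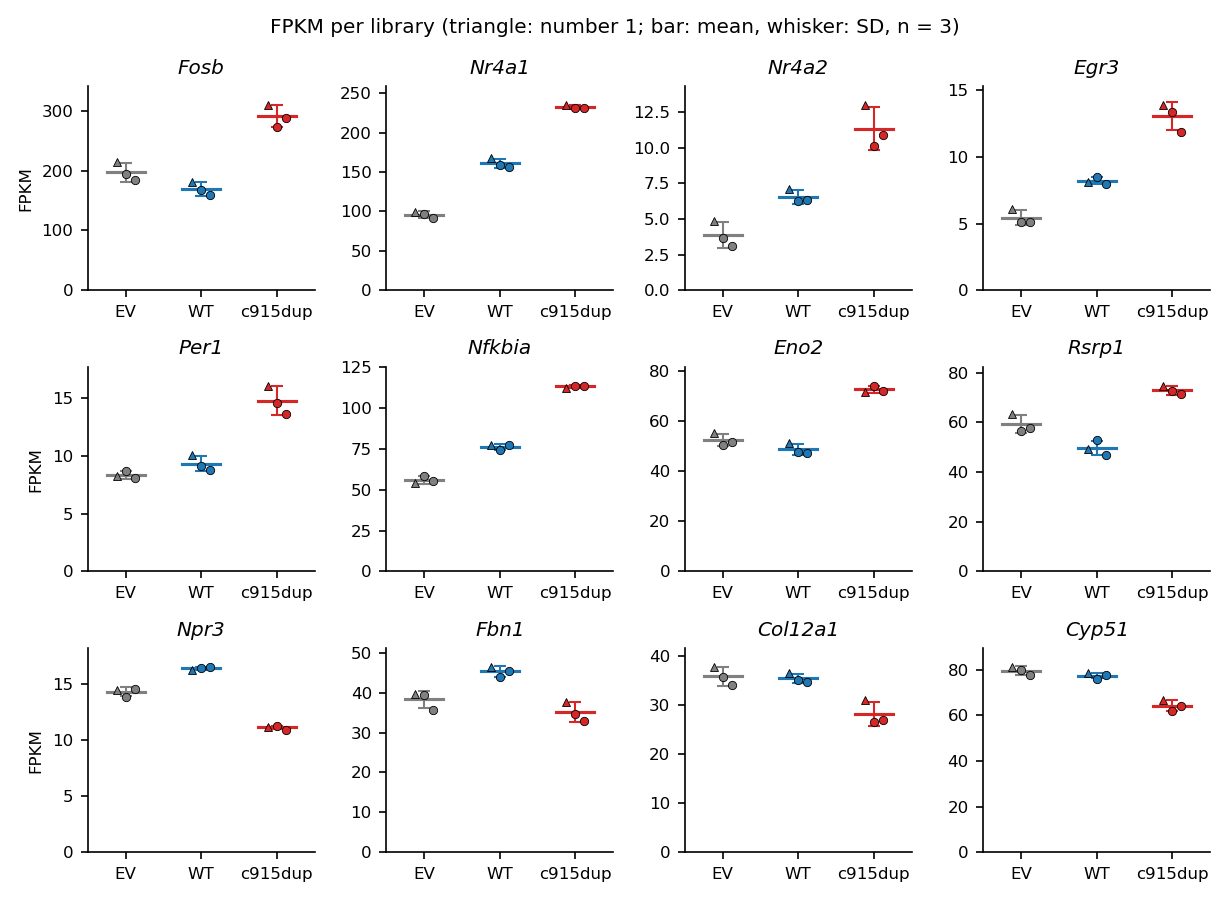
FPKM of 12 genes in each of the 9 libraries (y axis, from 0) by group (x axis). Triangles are the libraries numbered 1, bars the group mean and whiskers the SD (n = 3); in the first 8 panels all c915dup libraries lie above all WT libraries, and in the last 4 panels they lie below.

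Of 19 tested NF-kB inhibitors and subunits, 3 rose (15.8%, against 3.13% of all genes), none fell and 16 did not pass, at a median of 0.05. Nfkbia, which encodes the inhibitor that holds NF-kB in the cytoplasm, had 77.3, 74.1 and 77.6 FPKM in WT and 112, 114 and 114 FPKM in c915dup. Nfkbiz, a nuclear member of the same family, had 318, 322 and 317 FPKM in WT and 443, 451 and 445 FPKM in c915dup. For both the spread within a group was a small part of the gap. Their log2 differences were 0.56 ± 0.04 (adjusted p = 3.3e-05) and 0.48 ± 0.03 (adjusted p = 2.51e-05), and both had an adjusted p of 0.0031 without the block. The third rise was that of Chuk, a subunit of the kinase that phosphorylates the inhibitor (log2 0.39 ± 0.07, adjusted p = 0.0204), lost without WT replicate 2 or c915dup replicate 1 or 4 (adjusted p 0.0572 to 0.0771). The subunit Rela stood at log2 0.13 and did not pass. EV had 54.4, 58.8 and 55.3 FPKM of Nfkbia, below both forms.

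Of 13 chemokines and cytokines, 2 rose (15.4%, against 3.13% of all genes), none fell and 11 did not pass. The neutrophil chemokine Cxcl1 went from 161, 132 and 140 FPKM in WT to 238, 186 and 187 FPKM in c915dup without overlap (log2 0.49 ± 0.04, adjusted p = 6.95e-05, and 0.168 without the block). Ccl2, a monocyte chemokine, had 126, 92.4 and 97.2 FPKM in WT and 157, 122 and 118 FPKM in c915dup. Its groups overlapped, because the WT library numbered 1 exceeded both c915dup libraries of other numbers (log2 0.33 ± 0.03, adjusted p = 0.000489, and 0.492 without the block). Of 15 genes of IL-6 family signalling, 2 rose (13.3%), 1 fell (6.67%, against 1.68% of all genes) and 12 did not pass. The cytokine Clcf1 had 12.2, 11.8 and 12.2 FPKM in WT and 17.6, 18.3 and 17.8 FPKM in c915dup, and the kinase Pim1 had 26.2, 28.1 and 24.8 and then 36.0, 36.2 and 34.4 FPKM. Neither overlapped, and both passed with and without the block (log2 0.53 ± 0.05 and 0.42 ± 0.06, adjusted p 0.000309 and 0.00301 with the block). The shared receptor subunit Il6st fell by 0.19 on the log2 scale (adjusted p = 0.0144), a call lost without WT replicate 3 or c915dup replicate 3 or 4 (adjusted p up to 0.0592). The 9 tested acute-phase and innate defence genes had no call in either direction, with a median of -0.10.

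Of 13 ERK feedback inhibitors, which damp growth factor signalling, 2 rose (15.4%, against 3.13% of all genes), none fell and 11 did not pass, at a median of 0.10. These were the phosphatase Dusp5 (15.2, 14.8 and 15.3 FPKM in WT, 19.1, 20.3 and 20.1 in c915dup, log2 0.37 ± 0.07) and Errfi1, an inhibitor of the EGF receptor (52.0, 46.4 and 46.6 FPKM in WT, 57.6, 52.9 and 53.4 in c915dup, log2 0.17 ± 0.04). The groups overlapped in neither gene, but both calls were lost on leaving out WT replicate 2 or 3 or any c915dup library (adjusted p 0.0539 to 0.107). Among 9 genes of the EGF receptor and its ligands, Hbegf, a membrane-bound ligand, rose by log2 0.32 ± 0.05 (adjusted p = 0.006). The ligand Ereg and Errfi1 also rose (33.3% of the 9 genes with Hbegf), and Adam10, a sheddase, fell (11.1%, against 1.68% of all genes). However, Ereg and Adam10 kept their calls in 1 of 9 fits with a library left out. The receptor Egfr stood at log2 -0.20 and did not pass. Sik1, a kinase induced through cAMP and CREB, had 24.7, 21.8 and 21.7 FPKM in WT and 34.9, 31.6 and 31.5 FPKM in c915dup with no overlap (log2 0.51 ± 0.04, adjusted p = 9.33e-05, and 0.0323 without the block). It and the cyclooxygenase Ptgs2 (log2 0.30 ± 0.05, adjusted p = 0.0088) were the rises among 16 genes of the cAMP and CREB response (12.5%, against 3.13% of all genes), where none fell.

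Targets of SRF and YAP moved in both directions. Of 22 members tested, 2 rose (9.09%, against 3.13% of all genes) and 3 fell (13.6%, against 1.68%), and the median was -0.01. The nuclear ankyrin-repeat gene Ankrd1 had 82.6, 78.2 and 75.9 FPKM in WT and 116, 104 and 102 FPKM in c915dup (log2 0.44 ± 0.03, adjusted p = 6.95e-05, and 0.0445 without the block). The matricellular gene Ccn1 went from 482, 491 and 485 to 565, 570 and 568 FPKM (log2 0.22 ± 0.02, adjusted p = 0.0011). Both had groups that did not overlap. The falls were in large cytoskeletal genes: the actin cross-linker Flna (log2 -0.20 ± 0.04) and the nonmuscle myosin heavy chains Myh9 (-0.20 ± 0.03) and Myh10. Flna lost its call without c915dup replicate 4 (adjusted p = 0.0612), and Myh9 lost it without WT replicate 2 (0.051) or c915dup replicate 4 (0.0533). Among 19 genes of the BMP and TGF-beta response, 2 rose (10.5%, against 3.13% of all genes) and none fell. Id1, an inhibitor of bHLH factors, rose from 40.6, 47.8 and 48.1 to 53, 72.1 and 61.2 FPKM (log2 0.44 ± 0.05, adjusted p = 0.00214). Id2 rose by log2 0.44 ± 0.09 (adjusted p = 0.0313), lost without WT replicate 1 or 2, c915dup replicate 1 or 3 or EV replicate 3 (adjusted p up to 0.116). Of 18 Wnt pathway genes, 1 fell (5.56%, against 1.68% of all genes). This was Ctnnb1 (log2 -0.14, lost without any of 4 libraries with adjusted p up to 0.0956). Of 10 Notch pathway genes none passed. The Notch target Hes1 had 69.0, 68.3 and 67.9 FPKM in WT and 79.0, 90.9 and 77.3 FPKM in c915dup, a log2 difference of 0.26 that did not pass (adjusted p = 0.0558), whereas EV had 20.2 to 23.9 FPKM.

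Of 20 tested clock genes, 3 rose (15%, against 3.13% of all genes), none fell and 17 did not pass, with a median of 0.12. Per1, a transcriptional repressor of the clock, had 10.1, 9.10 and 8.80 FPKM in WT and 16.1, 14.6 and 13.6 FPKM in c915dup. All c915dup libraries exceeded all WT and EV libraries (EV 8.06 to 8.70 FPKM). The log2 difference was 0.61 ± 0.06 (adjusted p = 0.000489, and 0.0171 without the block). Bhlhe40, a repressor that acts on E-boxes, rose from 61.8, 67.1 and 63.7 to 83.7, 77.4 and 77.4 FPKM (log2 0.30 ± 0.05, adjusted p = 0.006). Cry2 rose by log2 0.38 ± 0.08 (adjusted p = 0.027), lost without any WT library or without c915dup replicate 1 or 3 (adjusted p up to 0.101). The activators Arntl and Clock stood at log2 -0.21 and -0.15 and did not pass.

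Of 26 tested genes of glycolysis and the hypoxia response, 10 rose (38.5%, against 3.13% of all genes), none fell and 16 did not pass, and 23 were above 0. Without the libraries numbered 1 7 rose, and without the block 1 did. The median was 0.14, with 0.12 in the pair numbered 1 and 0.17 in the other 4 libraries. Eno2, the neuronal form of the glycolytic enzyme enolase, had 51.4, 47.6 and 47.2 FPKM in WT and 71.8, 74.3 and 72.2 FPKM in c915dup. EV lay near WT, at 50.3 to 55.2 FPKM, and the c915dup libraries lay above all others (log2 0.57 ± 0.04, adjusted p = 5.5e-05, and 0.0031 without the block). The mitophagy receptor Bnip3 rose by log2 0.35 ± 0.05, the angiogenic factor Vegfa by 0.34 ± 0.05 and the glucose transporter Slc2a1 by 0.33 ± 0.04, with adjusted p values of 0.00381, 0.00338 and 0.00279. Their groups did not overlap, although none of these 3 passed without the block (adjusted p 0.077 to 0.276). Smaller rises, from log2 0.16 to 0.21, were those of Pgam1, Egln1, Ndrg1, Gpi1, Hk2 and Pdk1. The abundant enzymes Eno1 (0.03), Pkm (0.02) and Gapdh (0.11) did not pass.

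Of 41 genes of RNA processing, namely SR proteins, CLK kinases and hnRNPs, 11 rose (26.8%, against 3.13% of all genes), none fell and 30 did not pass, and 36 were above 0. Without the block 2 rose. The median was 0.14 in the fit, 0.25 in the pair and 0.10 in the other 4 libraries, where 5 passed. Rsrp1, an arginine- and serine-rich protein, had 49.5, 52.8 and 47.0 FPKM in WT and 74.8, 72.8 and 71.3 FPKM in c915dup. Srsf11 had 97.1, 101 and 99.9 FPKM in WT and 150, 128 and 132 FPKM in c915dup. For both, the groups were apart, and both passed without the block (log2 0.55 ± 0.05 and 0.45 ± 0.05, adjusted p with the block 0.000203 and 0.000727). The splicing-related genes Pnisr (log2 0.42 ± 0.06, adjusted p = 0.00416) and Srrm2 (0.29 ± 0.04, adjusted p = 0.00301) passed with the block. Both also passed without the libraries numbered 1, but neither did when all libraries were fitted without the block (limma adjusted p 0.337 and 0.11). The rises included the kinases Clk1 (0.41) and Clk4 (0.31), which phosphorylate SR proteins, whereas Clk2 (0.21) and Clk3 (0.22) did not pass. Arglu1, a splicing modulator outside the list, had 23.8, 22.2 and 23.3 FPKM in WT and 40.0, 31.5 and 31.7 FPKM in c915dup (log2 0.55 ± 0.06, adjusted p = 0.000669). Of 17 nuclear and snoRNA-host long noncoding RNAs, 5 rose (29.4%, against 3.13% of all genes) and none fell, with a median of 0.18. The median was -0.17 for WT minus EV and -0.02 for c915dup minus EV. Snhg12 was lower in WT than in EV (log2 -0.44, adjusted p = 0.0133) and stood at -0.02 for c915dup minus EV. Malat1, Snhg6 and Snhg17 passed in neither comparison with EV. Of the 17 RNAs, 1 passed between the forms without the libraries numbered 1 and none without the block. The nuclear-retained RNA Malat1 moved with the library number: 219 FPKM in WT replicate 1 and 335 FPKM in c915dup replicate 1, against 155 and 158 FPKM in the other WT libraries and 174 and 184 FPKM in the other c915dup libraries (log2 0.33 ± 0.07, adjusted p = 0.0352). Its call was lost in 7 of 9 fits with a library left out, and Snhg6, Snhg12 and Snhg17, hosts of small nucleolar RNAs, kept theirs in 4, 7 and 3 of 9. The part of the libraries numbered 1 in these differences was not tested beyond the values given.

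Among the genes that fell, Npr3 kept its call under each of the alternatives tried for the main fit. It encodes the clearance receptor that removes natriuretic peptides (chromosome 15, minus strand). WT had 16.3, 16.5 and 16.6 FPKM, c915dup 11.2, 11.3 and 11.0 FPKM and EV 14.6, 13.9 and 14.6 FPKM. The libraries of a group lay close together, and the 3 groups did not overlap. The log2 difference, c915dup minus WT, was -0.52 ± 0.05 (adjusted p = 0.000203, and 0.0031 without the block). It was -0.50 in the pair numbered 1 and -0.53 in the other 4 libraries. Of 8 tested genes of natriuretic peptide signalling, 2 fell (25%, against 1.68% of all genes), none rose and 6 did not pass. The other fall was Mme, a peptidase that degrades natriuretic peptides (log2 -0.36 ± 0.08, adjusted p = 0.027), lost without WT replicate 2 or 3 or c915dup replicate 3 or 4 (adjusted p up to 0.099). The receptors Npr1 (0.12) and Npr2 (0.11) did not pass.

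Of 20 tested collagens, 7 fell (35.0%, against 1.68% of all genes), 1 rose and 12 did not pass, and 16 were below 0. Without the libraries numbered 1 6 fell. The fibrillar collagen Col3a1 had 379, 428 and 422 FPKM in WT and 337, 342 and 335 FPKM in c915dup. Col12a1, which associates with fibrils, had 36.5, 35.0 and 34.7 FPKM in WT and 31.0, 26.6 and 26.9 FPKM in c915dup. Col11a1, a minor fibrillar chain, had 30.4, 29.0 and 29.6 FPKM in WT and 26.8, 21.2 and 21.6 FPKM in c915dup. No groups overlapped in these 3, and their log2 differences were -0.28 ± 0.04, -0.32 ± 0.04 and -0.35 ± 0.05 (adjusted p 0.00279, 0.00279 and 0.00553). Col3a1 was higher in WT than in EV (0.18, adjusted p = 0.0434) and did not pass between c915dup and EV (-0.10). Col12a1 and Col11a1 did not pass between WT and EV. Both were lower in c915dup than in EV (-0.34 and -0.29, adjusted p 0.00109 and 0.00947). The other falls, of Col5a1, Col5a2, Col6a1 and Col6a2, were between -0.15 and -0.17. Col1a2, a chain of type I collagen, went the other way, from 195, 202 and 196 to 245, 230 and 228 FPKM (log2 0.24 ± 0.04, adjusted p = 0.00635), while its partner chain Col1a1 stood at -0.08 and did not pass. The collagen median was -0.15, but only -0.06 in the pair numbered 1 against -0.17 in the other 4 libraries.

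Of 35 tested noncollagen matrix genes, 11 fell (31.4%), none rose and 24 did not pass, and 30 were below 0. Without the libraries numbered 1 11 fell. They had a median of -0.12 in the fit, -0.14 in the pair numbered 1 and -0.11 in the other 4 libraries. Fbn1, the microfibril protein fibrillin, had 46.5, 44.0 and 45.4 FPKM in WT and 37.7, 34.6 and 32.8 FPKM in c915dup, and EV had 35.8 to 39.7 FPKM. Its c915dup libraries lay below all WT libraries and overlapped EV. The log2 difference was -0.36 ± 0.05 (adjusted p = 0.00243). The proteoglycan Vcan (-0.30 ± 0.04), the thrombospondin Thbs2 (-0.27 ± 0.03) and the matrilin Matn2 (-0.27 ± 0.04) fell with adjusted p values of 0.00322, 0.00221 and 0.00553. Further falls were those of Tnc, Ogn, Nid1, Nid2, Lamc1, Efemp1 and Sparc, between -0.14 and -0.28, while fibronectin (Fn1, -0.11) did not pass. None of the matrix genes passed without the block. Of 32 matrix enzymes and inhibitors, 4 fell (12.5%, against 1.68% of all genes) and 2 rose (6.25%, against 3.13%). The falls named here, of the collagen cross-linker Lox, the collagen chaperone Serpinh1, the protease Adamts1 and the inhibitor Timp2, were -0.18, -0.14, -0.18 and -0.12, and each was lost when single libraries were left out (kept in 2, 4, 5 and 0 of 9 fits). Adamts1 was higher in WT than in EV (0.27, adjusted p = 0.00409) and did not pass between c915dup and EV (0.09). Lox was lower in c915dup than in EV (-0.26, adjusted p = 0.00552). Among 19 integrin and adhesion genes 1 fell (5.26%), Tln1 (-0.16), kept in 3 of 9 fits. The collagens and noncollagen matrix genes are long, with median transcripts of 6190 and 5729 bp, and the longest genes as a class had a median below 0 in the 4 libraries not numbered 1 (-0.07) but not in the pair numbered 1 (0.03).

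Of 29 tested genes of sterol and fatty acid synthesis, 11 fell (37.9%, against 1.68% of all genes), none rose and 18 did not pass, and 26 were below 0. The median was -0.17, with -0.14 in the pair numbered 1 and -0.16 in the other 4 libraries, and the same number, 11, fell without the libraries numbered 1. Acaca, the enzyme that commits carbon to fatty acids, had 20.7, 19.2 and 18.9 FPKM in WT and 17.1, 13.9 and 14.4 FPKM in c915dup (log2 -0.36 ± 0.05, adjusted p = 0.00454). Cyp51, a sterol demethylase, had 78.5, 76.1 and 77.8 FPKM in WT and 66.9, 62.1 and 64.0 FPKM in c915dup (-0.26 ± 0.03, adjusted p = 0.00221). Hmgcs1, early in the mevalonate pathway, had 238, 227 and 230 FPKM in WT and 215, 182 and 186 FPKM in c915dup (-0.25 ± 0.04, adjusted p = 0.00419). None of these groups overlapped, and EV overlapped WT in each. Fdps (-0.22), Scd2 (-0.19), Nsdhl, Fasn, Sqle, Scd1 and Acly were among the others that fell. The regulators Srebf1 (-0.02), Srebf2 (-0.05) and Insig1 (-0.04) did not pass. None of the list passed without the block, where Cyp51 came to an adjusted p of 0.0617.

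**Figure D4:**
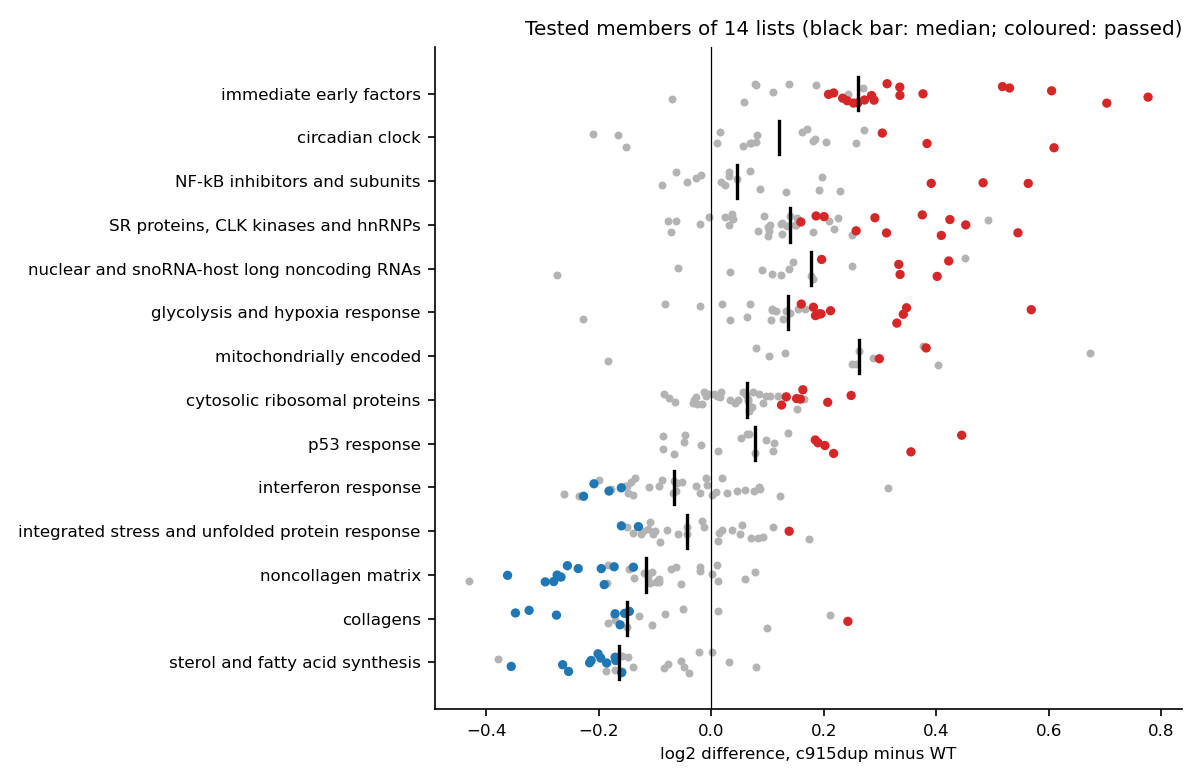
Log2 difference, c915dup minus WT (x axis), of each tested member of 14 gene lists (y axis). Red members rose, blue members fell, grey members did not pass and the black bar is the list median; the medians run from 0.26 for immediate early factors and mitochondrially encoded genes to -0.17 for sterol and fatty acid synthesis.

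Of 21 p53 response genes, 6 rose (28.6%, against 3.13% of all genes), none fell and 15 did not pass, at a median of 0.08. Without the libraries numbered 1 3 rose, and without the block none did. The kinase Plk3 (log2 0.45 ± 0.08, adjusted p = 0.0096) and the p53 inhibitor Mdm2 (0.35 ± 0.05, adjusted p = 0.00421) led, whereas the cell cycle inhibitor Cdkn1a (0.20) and Plk2 (0.18) kept their calls in 4 of 9 fits each. Of 37 interferon response genes, 4 fell (10.8%, against 1.68% of all genes) and none rose. The falls were those of Ifit1, Gbp2, Gbp3 and Isg15 (-0.16 to -0.23), which kept their calls in 7, 5, 4 and 3 of 9 fits. In the integrated stress and unfolded protein response, 1 of 30 rose (3.33%) and 2 fell (6.67%). The rise was Ppp1r15a (0.14) and the falls were Pdia4 (-0.16) and Asns (-0.13), kept in 0, 5 and 0 of 9 fits. Asns was higher in WT than in EV (0.21, adjusted p = 0.00863) and did not pass between c915dup and EV (0.08). Pdia4 passed in neither comparison with EV. Of 23 heat shock proteins and chaperones none passed. Of 24 antioxidant genes 1 rose (4.17%), the small Maf factor Mafk (0.27, kept in 4 of 9 fits). The cell cycle list of 40 had 1 rise (2.5%), of Foxm1 (0.17, kept in none of 9 fits). It had 2 falls (5%), of the replication helicase subunits Mcm6 (-0.22 ± 0.03, adjusted p = 0.00539) and Mcm2 (-0.17, kept in 4 of 9 fits). Of 40 cytosolic ribosomal protein genes 7 rose (17.5%) and none fell, by log2 0.12 to 0.25, at a median of 0.06, but 2 rose without the libraries numbered 1 and none without the block. Ribosomal protein genes have many processed pseudogenes, so their values are uncertain. Nuclear-encoded oxidative phosphorylation genes had 3 rises (8.11%) and 2 falls (5.41%) among 37. Of 13 mitochondrially encoded genes 2 rose (15.4%) and 12 were above 0, at a median of 0.26. The rises were those of mt-Co1 (0.30 ± 0.04, adjusted p = 0.00231) and mt-Nd1 (0.38, kept in 2 of 9 fits), and the list median was 0.42 in the pair numbered 1 and 0.24 in the other libraries. Without the libraries numbered 1, mt-Co1 rose (adjusted p = 0.0342) and mt-Nd6 fell (adjusted p = 0.0139), from 148 and 164 FPKM in WT to 111 and 120 FPKM in c915dup, and without the block none of the list passed. The mitochondrial share of FPKM was 5.46% in EV replicate 1, 4.36% in WT replicate 1 and 5.49% in c915dup replicate 1. The part of this share in the rises was not tested. For mt-Co1 the log2 difference was -0.32 for WT minus EV (limma adjusted p = 0.00169) and -0.02 for c915dup minus EV (0.814). The medians of the mitochondrial list for these comparisons were -0.04 and 0.24. Of 3 tested replication-dependent histones, 1 rose (Hist1h1c, 0.40, kept in 2 of 9 fits).

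Genes close to LMX1A's known roles were few in these cells. Of 21 LIM-homeodomain factors and cofactors, 8 were tested. The cofactor Ldb1, which bridges LIM factors, had 35.3, 31.3 and 29.8 FPKM in WT and 40.2, 41.6 and 37.4 FPKM in c915dup. It rose without overlap (log2 0.30 ± 0.05, adjusted p = 0.0144), though the call was lost without WT replicate 2 or 3 or c915dup replicate 3 (adjusted p 0.0529 to 0.0573). The factor Isl1 (0.27) and the LDB partners Ssbp2 (-0.15) and Ssbp3 (0.06) did not pass. In the midbrain dopaminergic programme, 3 of 19 genes were tested: Nr4a2 rose, and Msx1 (0.04) and En1 (-0.07) did not pass. The hair cell marker Myo6 stood at log2 0.03 and did not pass. Among 16 deafness genes Myh9 and the POU factor Pou3f4 (-0.23, kept in 4 of 9 fits) fell (12.5%, against 1.68% of all genes). Pou3f4 was higher in WT than in EV (0.28, adjusted p = 0.0249) and did not pass between c915dup and EV (0.04). Myh9 did not pass between WT and EV (0.05) and was lower in c915dup than in EV (-0.15, adjusted p = 0.0275). Among 19 mesenchymal factors 2 fell (10.5%), and the PDGF receptor Pdgfra was 1 of these (-0.20, kept in 1 of 9 fits). Of 8 neuronal genes Eno2 rose (12.5%), and of 5 Schwann cell and melanocyte genes Egr2 rose (20%), against 3.13% of all genes.

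Markers of other cell types differed in level by list. The 13 macrophage and leukocyte markers summed to 8.27 to 9.74 FPKM in WT and 8.84 to 10.9 FPKM in c915dup, with Adgre1, Tyrobp, Cd3e and Ly6g listed at 0 in all 6 libraries; Cd14, Cd68 and Lyz2 reached 1 FPKM. The 10 endothelial markers summed to 1.77 to 2.14 FPKM in WT and 1.54 to 1.99 FPKM in c915dup, and the 12 epithelial markers to 0.987 to 1.44 and 1.11 to 1.30 FPKM. None of the tested members of these 3 lists passed. The 16 Schwann cell and melanocyte markers summed to 131 to 133 FPKM in WT and 126 to 136 FPKM in c915dup. Most of that came from the myelin gene Pmp22 (62.9 to 64.6 FPKM in WT, 56.1 to 64.8 in c915dup) and the glycoprotein gene Gpnmb (50.01 to 51.9 and 47.6 to 48.3), while Sox10, Tyrp1, Dct, Mlana and Kit were listed at 0. Fewer cells of a type and less RNA per cell cannot be told apart in such bulk libraries.

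Many of the largest changes lay outside the lists, which held 144 of the 574 calls. Among the 15 largest rises that did not overlap, Frg2f1 rose from 0.741, 0.767 and 0.763 FPKM to 2.30, 2.57 and 1.69 FPKM (log2 0.85 ± 0.14, adjusted p = 0.00859). Izumo4 rose from 2.81, 2.33 and 1.81 to 4.60, 3.72 and 4.14 FPKM (0.64 ± 0.10, adjusted p = 0.00706). These genes had low FPKM, where the log2(FPKM + 1) scale understates the change. Apol8 (0.67, lost without c915dup replicate 3 at an adjusted p of 0.0537), Ankrd23 (0.55), Acrbp (0.60) and the pseudogene Rpl34-ps1 (0.57) completed them, the last 3 kept in 5, 2 and 5 of 9 fits. The falls included App, the amyloid precursor gene, with 109, 126 and 123 FPKM in WT and 82.8, 103 and 96.9 FPKM in c915dup. Its groups did not overlap (log2 -0.34 ± 0.05, adjusted p = 0.00326). Sorbs2, an adaptor of the actin cytoskeleton, fell from 12.1, 8.18 and 8.49 to 7.39, 5.99 and 6.15 FPKM (-0.48 ± 0.07, adjusted p = 0.00429), and the matrix gene Abi3bp (-0.38 ± 0.05) and the calpain-family gene Capn6 (-0.36 ± 0.05) fell with adjusted p values of 0.00326 and 0.00553. Capn6 was higher in WT than in EV (0.33, adjusted p = 0.0146) and did not pass between c915dup and EV (-0.04). Abi3bp did not pass between WT and EV (0.15) and was lower in c915dup than in EV (-0.23, adjusted p = 0.0289). App and Sorbs2 passed in neither comparison with EV. Hdc, which makes histamine, fell from 2.66, 1.94 and 2.38 to 1.38, 1.01 and 1.55 FPKM (-0.53 ± 0.12, adjusted p = 0.0325) and was kept in 4 of 9 fits. The other named falls, of Klhl25, Tpd52l1, Farp2, B3galt1, Uprt and Dhrs9, ran from -0.34 to -0.41, with 2, 4, 7, 3, 5 and 0 of 9 fits keeping the call.

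Short RNA genes gave 17 calls, whose values are uncertain because a short gene inside another shares its fragments with the gene around it. Of 94 tested small nucleolar RNA genes 7 rose and 1 fell, and of 76 microRNA genes 3 rose and none fell. Of 18 mitochondrial tRNA genes 3 rose, of 5 rRNA genes 1 rose, and of 8 small Cajal body RNA genes 1 rose and 1 fell. Among all genes tested 3.13% rose and 1.68% fell. Mir6994, inside Patl1, stood at 0.0555 FPKM in WT and 1.57 FPKM in c915dup on average (log2 1.28, adjusted p = 0.00409), whereas Patl1 stood at 0.04 and did not pass. Gm22455, Gm23136 and Gm22571, small nucleolar RNA genes inside the ribosomal protein gene Rpl4, rose by 0.97, 0.88 and 0.72 while Rpl4 stood at -0.03. Snord34 and Snord35a, inside Rpl13a, rose by 0.60 and 0.63, and their host rose by 0.16. The falls were those of Gm24339 (-0.67), inside Cep295, and Gm22009 (-0.70), inside Kpna4. Cep295 stood at 0.11 and did not pass, whereas Kpna4 fell (-0.27).

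The share of rises and falls differed with transcript length. Among 10812 tested protein-coding genes, those that rose had a median longest transcript of 2927 bp, those that fell 4682 bp and all tested 3442 bp. In length bins of equal size, the share that rose went from 3.97% of the shortest to 1.34% of the longest, and the share that fell from 0.462% to 3.65%. The median log2 difference of all genes in a bin went from 0.03 to -0.04. This gradient was in the 4 libraries not numbered 1, from 0.03 to -0.07, whereas the pair numbered 1 stayed between 0.03 and 0.04. Within the longest bin, the 14 collagens had a median of -0.14 and the 19 noncollagen matrix genes -0.12, against -0.04 for the whole bin. Genes that fell also had higher levels in WT (median 35.0 FPKM) than genes that rose (18.6) or all tested (11.6).

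**Figure D5:**
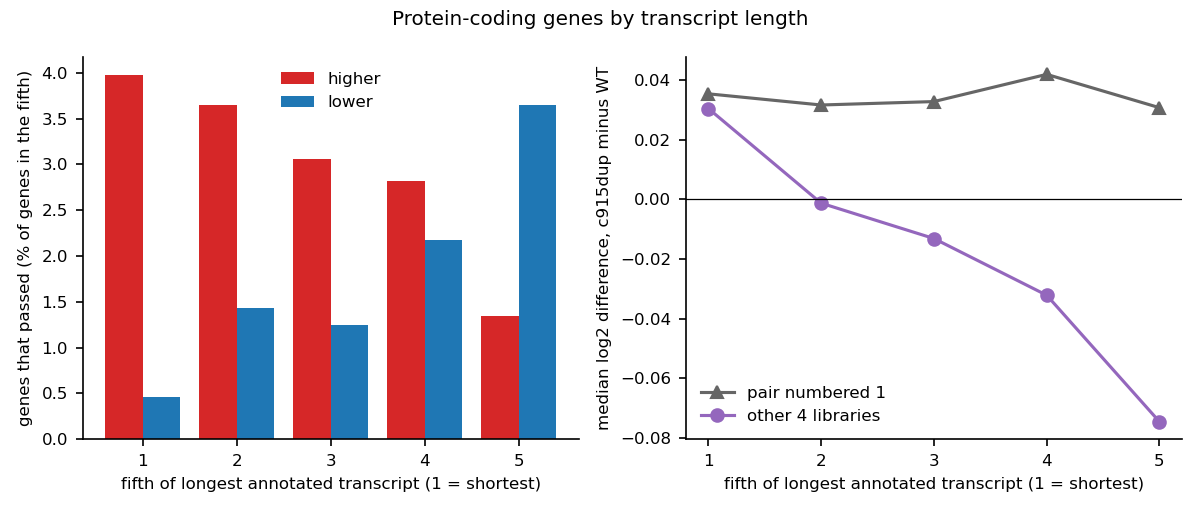
Left, share of protein-coding genes that rose (red) or fell (blue) between c915dup and WT in 5 bins of longest transcript (x axis, 1 the shortest). Right, median log2 difference per bin in the pair numbered 1 (triangles) and in the other 4 libraries (circles), where it runs from 0.03 to -0.07.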

How the data were processed

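Gene levels were read from the table the authors deposited, which holds FPKM (inferred from the values, since no header names the unit) for 55451 genes in 9 libraries. Per the submitters' processing notes, CASAVA 1.8, Trimmomatic, FastQC, HISAT2, RSEM and edgeR were used on GRCm38; the design text of the series instead gives BWA, TopHat and Cufflinks. Each library was made from 1 µg of total RNA, per the labels' protocols. The sources used here do not state whether strand entered the counting, and depth in fragments is unknown. A second deposited table of 16512 genes held the same values, and a table of correlations was not used here. The EV and WT columns carry the numbers of their titles, and the c915dup columns 1, 3 and 4 were matched to a group but not to single titles.

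Tested genes (11933) had 1 FPKM or more in 3 or more of 9 libraries. log2(FPKM + 1) was fitted for all 9 libraries with limma 3.58.1 in R 4.3.3 (lmFit, eBayes with trend and robust), with 3 group means and number 1 against other numbers as a block, with two-sided p values adjusted by Benjamini-Hochberg across the 11933 genes. Such differences understate the change of low genes. Adjusted p values are from limma, and a gene passed under 0.05. Deviations from the group mean correlated at r = 0.621 to 0.656 between libraries numbered 1 and at 0.235 to 0.424 between other libraries of different groups. The latter range cannot show whether other numbers are paired, because each group mean includes the outlying library numbered 1. EV replicate 2 minus 3 and WT replicate 2 minus 3 correlated at r = 0.039. The block on number 1 was set before the fit and was not derived from these correlations. The labels do not say what a number stands for. The fit was also run on simulated data, whose changes were larger than most differences called here and whose noise was independent between libraries. That run therefore does not bear on the small differences. Python 3.11.15, pandas 2.3.3, numpy 2.4.6 and matplotlib 3.10.9 were used. Within a group, at most 0.0419% of values were identical.

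The members and the 43 lists (1037 distinct genes, 760 tested) were chosen with earlier results of these data known, and 7 lists had no call. Genes were named by rule: the 15 largest rises and 15 largest falls that passed without overlap and with a named gene, the up to 4 members of each list that had the lowest p, and LMX1A. Other list members are named by symbol to account for a list, after their values were seen. Transcript lengths are from GENCODE vM21. Values of a few members of the gene lists are not reported here.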

Additional observations from a re-analysis of the deposited data

Results flagged for a closer look

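For 2 of 11933 genes (0.0168%), the difference between c915dup and WT differed between the pair numbered 1 and the other libraries in limma's interaction test, and 1473 genes had an unadjusted p under 0.05. The first was Rps10, a ribosomal protein gene of the small subunit. It had 288, 494 and 474 FPKM in WT replicates 1, 2 and 3 and 492, 516 and 494 FPKM in c915dup replicates 1, 3 and 4, so that WT replicate 1 stood below the other 5 libraries. The log2 difference was 0.77 in the pair and 0.06 in the other 4 libraries, a gap of 0.71 (adjusted p = 0.0327). The second was Pcdhgb8, of the protocadherin gamma cluster, whose genes share exons, so its value is uncertain. It had 4.03, 5.32 and 5.40 FPKM in WT and 13.9, 0.856 and 1.02 FPKM in c915dup. The difference was 1.57 in the pair and -1.72 in the other 4 libraries, a gap of 3.29 (adjusted p = 0.0327). Each pair value rests on 1 library a group, and the part of library number in either gap was not tested.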

How the results depend on the processing

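No named gene that passed changed direction under any alternative. Of 113 named genes that passed, 53 kept the call in each of the 9 fits that left out 1 library and 14 kept it without the replicate block. The 374 rises and 200 falls became 26 and 1 without the replicate block, 238 and 74 with the 6 WT and c915dup libraries alone, 136 and 50 with FPKM above 0 in 3 libraries (22913 genes tested), 161 and 48 with eBayes without trend and robust, and 188 and 161 without the libraries numbered 1, an alternative chosen after seeing the data. The common total gave 344 falls. Leaving out 1 library gave 152 to 340 rises and 36 to 151 falls; the fewest rises came without c915dup replicate 3 and the fewest falls without c915dup replicate 4. The call of LMX1A (log2 0.24) was lost without the block (adjusted p = 0.175), with FPKM above 0 (0.0597), with eBayes without trend and robust (0.0605) and without the libraries numbered 1 (log2 0.18); over the fits with a library left out its log2 difference ran from 0.18 to 0.26. In the fit without number 1, the 188 rises and 161 falls became 17 and 6 with FPKM above 0, 0 and 0 with eBayes without trend and robust (2288 genes at an unadjusted p under 0.05 in limma), and 261 falls with FPKM of at least 5 in 6 libraries. The 2 interaction calls became 0 with FPKM above 0 (2271 at an unadjusted p under 0.05 in limma), 7 with FPKM of at least 5, 1 with the common total, 0 with median ratio scaling (1305) and 0 with eBayes without trend and robust (1291). The cause of these changes was not tested, apart from fewer samples or other genes tested. List medians kept their sign under both scalings, except those of IL-6 family signalling and of LIM factors, which went from 0.01 to -0.001 with the common total. In the BMP, Notch, EGF receptor, neuronal, Schwann cell, heat shock and antioxidant lists the median was below 0 and the mean above it. With 3 libraries a group and unknown depth, changes of weakly expressed genes may have been missed.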
